A study of Mus musculus with 20 samples.

Results

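The renin-angiotensin system was described here through 8 genes, Ren1, Agt, Ace, Agtr1a, Agtr1b, Mme, Enpep and Atp6ap2, chosen by name and matched to the Ensembl identifiers of a table of 57010 genes. The table holds RNA counts of liver and kidney from male UM-HET3 mice, a genetically heterogeneous cross, treated for 28 days from an age of 12 months. The 7c group (6 mice) received repsox, tranylcypromine, DZNep, CHIR99021, forskolin and TTNPB at 0.1 mg/kg/day each and valproate at 1 mg/kg/day through osmotic minipumps placed under the skin. The vehicle group (4 mice) carried pumps with the solvent alone, 50% DMSO in PEG300, so that both groups had the surgery and the solvent. Each tissue gave 6 libraries of 7c and 4 of vehicle, 20 in all, made from polyadenylated RNA. Both groups were of 1 sex and 1 age, and tissue was bulk RNA.

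In this hormone cascade renin, an aspartyl protease released by juxtaglomerular cells of the kidney, cuts angiotensinogen, a protein secreted mainly by the liver, to angiotensin I. Angiotensin converting enzyme turns that into angiotensin II, which acts on type 1 receptors to constrict vessels and retain sodium, and membrane peptidases then shorten or degrade the peptides. The kidney also makes angiotensinogen of its own in the proximal tubule, where converting enzyme and the peptidases sit on the brush border.

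Total counts ran from 28383359 to 34153084 per liver library and from 27855849 to 64872451 per kidney library. Defining markers were present in the labelled tissues: Slc34a1 and Umod, of the proximal tubule and the thick limb, had 0 counts in all 10 livers, and 11 hepatocyte markers summed to 115458 to 152016 CPM (counts scaled to the size of the library) in liver against 173.7 to 410.0 in kidney. Kidney libraries differed along a GC trend, the median deviation of the genes richest in GC (at least 53.8%) minus that of the poorest (at most 45.1%), which ran from -0.37 to 0.49 on the log2 scale. The like trend of the liver libraries, with limits of 53.6% and 44.8%, ran from -0.11 to -0.026 in the vehicle and from -0.0083 to 0.097 in the 7c group, without overlap, so that in liver this trend and the treatment cannot be told apart. Adipocyte markers summed to 58.5 to 153.5 CPM in the 7c kidneys and 37.4 to 49.6 in the vehicle kidneys. In liver, 7c replicate 6 held 437.4 CPM of 3 skeletal muscle markers, and no other liver exceeded 0.0722.

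Positions of the genes are given in GRCm39. Agt lies on chromosome 8 (125279301 to 125296716, minus strand), Ren1 on chromosome 1 (133278248 to 133288063, plus strand) and Ace on chromosome 11 (105858469 to 105880790, plus strand). Agtr1a lies on chromosome 13 (30518942 to 30566850, plus strand) and Agtr1b on chromosome 3 (20368609 to 20421348, minus strand). Mme (63148889 to 63293451, plus strand) and Enpep (129062824 to 129126369, minus strand) are on chromosome 3 as well, and Atp6ap2 is on the X chromosome (12453960 to 12495037, plus strand). UM-HET3 mice carry DBA/2J alleles, and that strain has an additional renin gene, Ren2. The annotation used here names no Ren2, so that Ren1 counts are uncertain as to which of the genes the reads came from.

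The mouse has paired type 1 receptor genes that could share reads. Their coding sequences, each in a single exon and 1077 bases long without the stop codon, differed at 99 positions (90.8% identity), and the longest identical run was 66 bases. The untranslated parts of the transcripts were not compared. Within the coding sequence, the stretch of 90 bases that differed most is shown, because coding reads are best told apart there. It spans positions 973 to 1062 counted from the A of the start codon. It lies inside the coding segments chr13:30564937-30566013 (plus strand) and chr3:20369528-20370604 (minus strand) of GRCm39, and capitals mark its 20 differing bases.
Agtr1a: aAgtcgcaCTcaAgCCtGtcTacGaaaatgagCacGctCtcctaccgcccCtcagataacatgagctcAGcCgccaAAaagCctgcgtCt
Agtr1b: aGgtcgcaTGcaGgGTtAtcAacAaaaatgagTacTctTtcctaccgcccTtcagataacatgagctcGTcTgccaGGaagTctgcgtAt
The deposited counts fell on Agtr1a almost alone. Agtr1b had at most 4 counts in any of the 20 libraries and 0 in all livers, did not pass the filter in either tissue, and was not tested.

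The promoters of the precursor and of the enzyme that cuts it are shown because these genes stood at opposite ends of the tissue comparison, with Ren1 counted almost only in kidney and Agt mostly in liver. The 250 bases before the annotated start (RefSeq, GRCm38.p6) are chr1:133350424-133350673 on the plus strand for Ren1 and chr8:124569707-124569956 on the minus strand for Agt, and capitals mark the letters TATAAA, searched on both strands.
Ren1: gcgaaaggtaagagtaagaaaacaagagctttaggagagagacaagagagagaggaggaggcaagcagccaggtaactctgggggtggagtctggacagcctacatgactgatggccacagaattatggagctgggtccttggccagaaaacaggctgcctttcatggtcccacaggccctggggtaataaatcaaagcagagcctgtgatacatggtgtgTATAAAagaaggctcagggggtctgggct
Agt: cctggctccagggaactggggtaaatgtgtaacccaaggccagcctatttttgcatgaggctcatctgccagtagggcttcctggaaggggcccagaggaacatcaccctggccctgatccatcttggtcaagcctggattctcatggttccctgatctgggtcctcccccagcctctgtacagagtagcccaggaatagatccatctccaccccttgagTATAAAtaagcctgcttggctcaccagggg
The match began 29 bases before the start in Ren1 and 30 in Agt. TATAAA was found in 12.4% of 32851 promoter windows of this length, and TGACGTCA, the letters bound by CREB, in 1.55%, among them neither of these windows.

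Levels per exonic length set the members in a different order in each tissue. Values here are RPKM, that is CPM divided by the exonic length in kilobases, scaled over all 20 libraries. In the vehicle kidneys Ren1 (51.2 ± 4.86, SD, n = 4) and Ace (46.5 ± 7.52) led, and their libraries overlapped. Below a gap followed Atp6ap2 (14.7 ± 3.81), Enpep (12.3 ± 2.69), Agtr1a (8.91 ± 1.25), Mme (6.29 ± 1.44) and Agt (3.46 ± 1.58), each overlapping with the next. In the vehicle livers Agt stood first at 71.7 ± 3.76 RPKM, apart from Agtr1a (19.5 ± 2.71), Enpep (14.2 ± 1.10), Atp6ap2 (10.1 ± 1.43) and Mme (5.22 ± 0.642), which did not overlap with their neighbours. Ace (0.212 ± 0.155) and Ren1 came last among the members with counts. The 7c livers kept the vehicle order, while in the 7c kidneys Agt (6.69 ± 3.30) was listed before Mme (4.98 ± 1.31), with overlapping libraries. The order held with the length of 1 transcript in place of all annotated exons, but the values of Agtr1a, Enpep and Atp6ap2 moved by over 1.5 times: in vehicle kidneys Agtr1a became 15.7, Enpep 22.8 and Atp6ap2 26.7 RPKM by the longest transcript, and in vehicle livers 34.3, 26.4 and 18.4 RPKM.

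**Figure D1:**
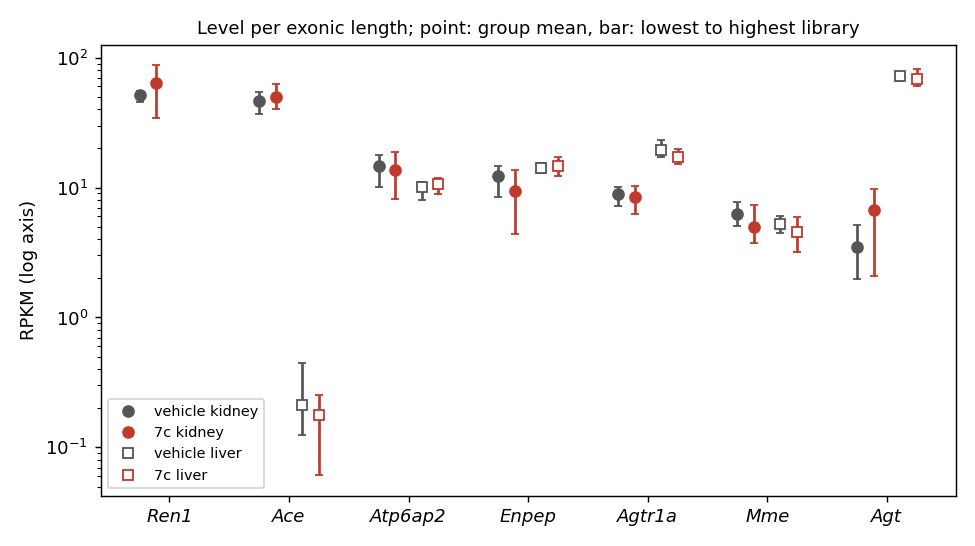
Level of 7 members in RPKM (log axis) for the vehicle and 7c groups of each tissue, with the group mean as a point and the lowest and highest library as a bar. Ren1 and Ace lead in kidney and Agt leads in liver, while the libraries of Enpep, Atp6ap2 and Mme overlap between the tissues in at least 1 group; Ren1 in liver and Agtr1b are not drawn because they include libraries at 0.

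In all, 5 of the 7 tested members differed between vehicle kidney and vehicle liver (adjusted p under 0.05, edgeR's quasi-likelihood test with Benjamini-Hochberg adjustment), where 57.9% of all genes tested did. Of these, 3 were higher in kidney, beside 31.0% of all genes, and 2 were lower, beside 26.8%. In CPM scaled over all 20 libraries, Ren1 was 84.8 ± 8.06 in vehicle kidneys, while 3 of the 4 vehicle livers had 0 counts and replicate 3 had 8. The 6 livers of the 7c group had 0 counts of Ren1, so that the 7c kidneys (106.1 ± 29.2 CPM) were at least 828-fold higher, with a floor of 3 counts per library.

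Ace was 260.1 ± 42.0 CPM in vehicle kidneys and 1.18 ± 0.868 in vehicle livers, a log2 difference of 7.76 (SE 0.40, adjusted p = 2.28e-13 in edgeR's quasi-likelihood test). The liver mean was raised by replicate 3 (2.48 CPM), beside 0.775, 0.692 and 0.781 CPM in replicates 1, 2 and 4. With a replicate left out, the difference ran from 7.53 to 8.46. The angiotensinogen gene went the other way, with 591.7 ± 31.1 CPM in vehicle livers and 28.5 ± 13.1 in vehicle kidneys, 20.7-fold more in liver (adjusted p = 6.04e-09, edgeR). In the 7c group the liver excess of Agt was 10.3-fold (568.2 ± 63.5 against 55.3 ± 27.3 CPM). Agtr1a was 2.19-fold higher in liver than in kidney in vehicle mice (90.0 ± 12.5 against 41.1 ± 5.75 CPM, adjusted p = 6.33e-07, edgeR) and 2.02-fold higher in 7c mice.

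The remaining members differed less between the organs. Atp6ap2, the (pro)renin receptor and an accessory subunit of the vacuolar proton pump, was 1.45-fold higher in vehicle kidneys (adjusted p = 0.0285, edgeR), a call that was lost without vehicle replicate 1 (0.112) or 3 (0.228). Enpep, aminopeptidase A, which trims angiotensin II to angiotensin III, differed by -0.21 (log2, kidney over liver; 95% interval -0.70 to 0.28) in vehicle mice and by -0.63 (adjusted p = 0.00685, edgeR) in 7c mice. The interaction given below, which compares these contrasts in a fit of its own, did not pass the test. Mme, neprilysin, differed by 0.27 (interval -0.17 to 0.71). In 7c mice 5 of 7 members were called, where 64.0% of all genes were, and Atp6ap2 was not (adjusted p = 0.0664, edgeR), although it was without 7c replicate 5 (0.0180), with RLE factors (0.0262) and in DESeq2 (0.0223).

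The main question of the design was whether 7c moved these transcripts. No member passed the threshold in kidney, where all 7 tested members had an adjusted p of 0.997 and 0% of 17749 genes were called by edgeR's quasi-likelihood test (463 genes had an unadjusted p under 0.05, and DESeq2 called 18). None of 6 passed in liver, where every adjusted p was 1.00 and 0.00666% of genes were called. Agt in kidney was the only member with an unadjusted p under 0.05, and no member was called by DESeq2, limma-voom or any other alternative of these contrasts. No member had 7c and vehicle libraries that did not overlap, which 0.716% of all genes had in kidney and 0.719% in liver. These are bulk samples, in which fewer cells of a type and less RNA per cell cannot be told apart.

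Renin transcripts in kidney, in CPM scaled within the tissue from here on, were 101.5, 113.8, 95.1 and 114.8 in vehicle replicates 1 to 4. In the 7c group the lowest was 71.6 (replicate 3), the median 135.1 and the highest 178.0 (replicate 2). Thus 5 of 6 7c kidneys lay above all vehicle kidneys and the remaining one below them all, and the 7c libraries spread over 2.49-fold against 1.21-fold in vehicle. At least 5 of 6 libraries beyond the vehicle range on 1 side was reached by 3.38% of genes in kidney and 4.37% in liver. The mean was 131.7 ± 35.5 CPM (n = 6) against 106.3 ± 9.61 (n = 4), a log2 fold change of 0.31 (SE 0.20, 95% interval -0.12 to 0.74, adjusted p = 0.997 in edgeR). The exact permutation test, two-sided over all 210 splits, gave p = 0.210. With each library left out in turn, settings added after the data were seen, p ran from 0.0159 to 0.357, and the lowest came without 7c replicate 3, the library farthest against the difference, so that it is no support for one.

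Angiotensinogen was the most variable member in kidney. Vehicle kidneys held 23.4, 53.2, 46.0 and 20.5 CPM of Agt in replicates 1 to 4. The 7c kidneys ran from 21.4 (replicate 3) over a median of 79.8 to 99.9 (replicate 5). In 4 of 6 7c kidneys Agt was above every vehicle kidney, and replicates 1 (33.7) and 3 fell among the vehicle values. Means of 68.7 ± 33.9 and 35.8 ± 16.3 CPM corresponded to a log2 fold change of 0.94 (SE 0.43, 95% interval 0.01 to 1.87, unadjusted p = 0.0476, adjusted p = 0.997 in edgeR). By the exact permutation test p was 0.114, and from 0.0476 to 0.238 with each library left out in turn, again lowest without 7c replicate 3, the lowest 7c library.

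Spread within the groups was unusual for Agt in kidney, with an SD of 0.85 on the log2 scale around the group means, above 99.3% of the 9167 kidney genes with at least 10 CPM. In liver, where Agt was the most abundant member, its SD was 0.14, above 21.4% of the 7783 liver genes at that level. In kidney the 11 hepatocyte markers had 3 positive and 8 negative log2 fold changes with 7c (median -0.94), 5 with an unadjusted p under 0.05 and 0 called, and summed to 173.7 to 410.0 CPM in the 7c and 275.5 to 409.2 in the vehicle libraries. The adipocyte sum was 122.8 CPM in 7c replicate 3, which had the lowest Agt of its group, and 59.8, 58.5, 126.1, 153.5 and 70.9 CPM in replicates 1, 2, 4, 5 and 6. All 7 of the adipocyte markers had a positive log2 fold change with an unadjusted p under 0.05 in kidney, with 0 called. The part of adipocyte RNA in the Agt values was not tested. For hepatocyte RNA, the kidney level of each marker was scaled by the ratio of mean Agt to the mean of that marker in liver, a calculation added after the data were seen. Alb gave at most 0.266 CPM of Agt in any kidney library, where 16.4 to 80.0 CPM were measured (CPM over all 20 libraries). Of the other markers Ttr, Apoh and Fga gave at most 19.3, 6.60 and 2.20 CPM, and the rest at most 1.41.

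In liver the vehicle libraries held 493.9, 485.3, 486.3 and 451.5 CPM of Agt, and the 7c libraries 397.7 at the lowest, 448.2 at the median and 557.8 at the highest (replicate 3). Of the 7c livers, 3 were below all vehicle livers, 1 was above and 2 lay within their range. The log2 fold change was -0.08 (SE 0.10, 95% interval -0.30 to 0.13, adjusted p = 1.00 in edgeR), from means of 453.1 ± 56.6 and 479.3 ± 18.9 CPM. The exact permutation p was 0.410, and from 0.0476 to 0.635 with each library left out in turn, lowest without 7c replicate 3, the highest 7c library.

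The Agt response was also compared between the organs. The interaction of 7c with tissue was 1.03 on the log2 scale, kidney minus liver (SE 0.47, 95% interval 0.06 to 2.01, unadjusted p = 0.0386, adjusted p = 1.00 in edgeR). None of 6 members passed this test, and 0.00706% of 14163 genes did. For Enpep the interaction was -0.40 (interval -1.02 to 0.22), and for Agtr1a it was 0.13 (-0.23 to 0.50).

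**Figure D2:**
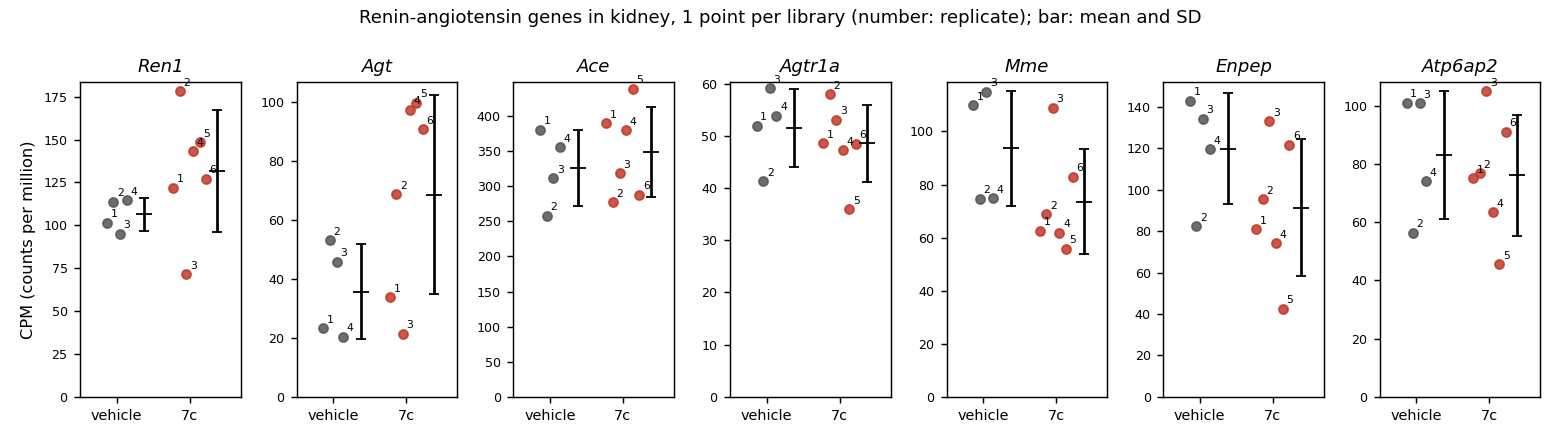
CPM of 7 members in each kidney library (replicate numbers beside the points), with the group mean and SD as a black bar, for vehicle (grey, 4 libraries) and 7c (red, 6 libraries). For Ren1 5 libraries of 7c lie above all vehicle libraries and replicate 3 lies below, Agt runs from 21.4 to 99.9 CPM in 7c, and no panel shows groups without overlap.

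Converting enzyme had overlapping groups in kidney and few counts in liver. Vehicle kidneys had 380.3, 257.7, 311.5 and 355.4 CPM of Ace, and 7c kidneys 276.8 at the lowest, 349.3 at the median and 438.8 at the highest. Within the vehicle range lay 4 of 6 7c libraries, and the log2 fold change was 0.10 (SE 0.16, 95% interval -0.24 to 0.44). In liver the 7c libraries had 8 to 32 counts of Ace, and the vehicle libraries 19, 19, 72 and 22. The log2 fold change in liver, -0.29 (SE 0.52), rested on the 72 counts of vehicle replicate 3 and was 0.38 without that library, which also held the 8 counts of Ren1. Kap and Slc34a1, abundant in every kidney, had 0 counts in that liver as in the others, and the source of its Ace and Ren1 counts was not tested.

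Among the receptors, Agtr1a had 51.9, 41.3, 59.1 and 53.8 CPM in the vehicle kidneys and 35.9, 48.5 and 58.0 as lowest, median and highest of the 7c kidneys. Groups overlapped, with a log2 fold change of -0.09 (SE 0.14, 95% interval -0.39 to 0.22). Liver showed the smallest permutation p of any member: the vehicle livers had 70.9, 84.9, 70.0 and 65.4 CPM, and the 7c livers 56.1, 60.9 and 72.8 as lowest, median and highest. Below all vehicle livers lay 4 of 6 7c livers. Means of 63.0 ± 5.99 and 72.8 ± 8.44 CPM corresponded to a log2 fold change of -0.21 (SE 0.10, 95% interval -0.43 to 0.01, adjusted p = 1.00 in edgeR). The exact permutation p was 0.0667, and from 0.0317 to 0.167 with each library left out in turn, lowest without 7c replicate 4, the highest 7c library.

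**Figure D3:**
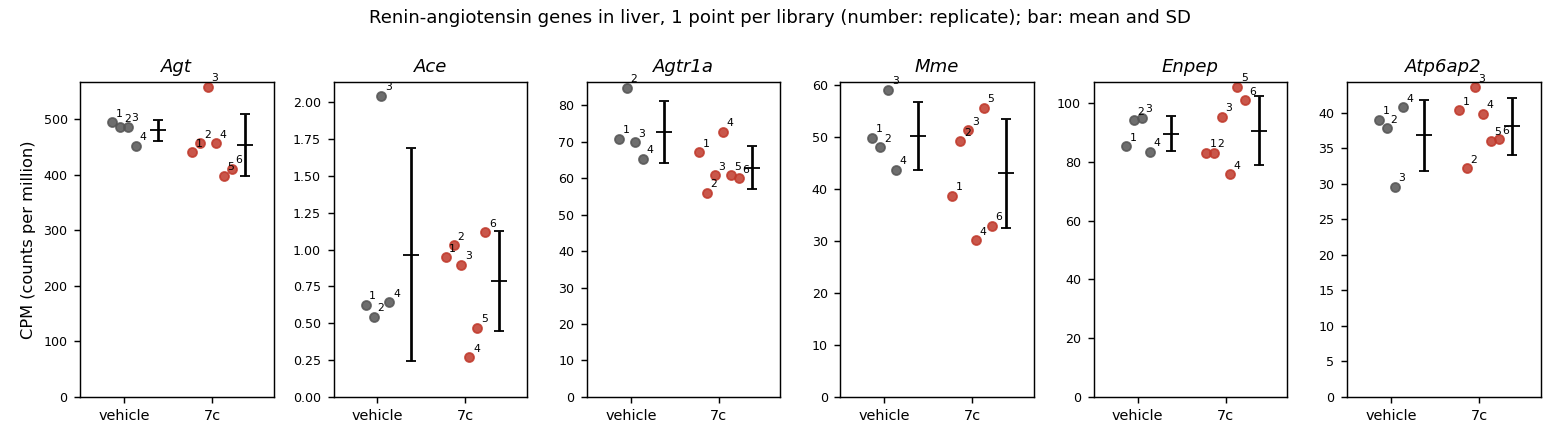
CPM of 6 members in each liver library, drawn as for kidney (grey, vehicle; red, 7c; black bar, mean and SD). Agtr1a has 4 of 6 7c libraries below all vehicle libraries, and vehicle replicate 3 stands alone at 2.05 CPM of Ace.

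The peptidases and the (pro)renin receptor had lower means in the 7c kidneys without passing the test. Mme, which cleaves angiotensin I to the heptapeptide that acts on Mas1, had 109.9, 74.7, 114.9 and 74.9 CPM in vehicle kidneys, and 55.8, 65.8 and 109.0 as lowest, median and highest in 7c kidneys. Below all vehicle libraries lay 4 of 6 7c libraries (log2 fold change -0.35, SE 0.20, 95% interval -0.78 to 0.08). Enpep had 143.0, 82.3, 134.3 and 119.6 CPM in vehicle kidneys and 42.6, 88.1 and 133.0 in 7c kidneys by the same order (log2 fold change -0.39, SE 0.26, interval -0.97 to 0.18). Atp6ap2 had 101.0, 56.4, 100.9 and 74.0 CPM in vehicle kidneys, while the 7c kidneys ran from 45.6 over 75.9 to 105.1 (log2 fold change -0.12, SE 0.22, interval -0.61 to 0.36). Both groups overlapped for all 3 genes.

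In liver these 3 genes varied less. Enpep was 90.6 ± 11.7 CPM with 7c and 89.5 ± 5.96 with vehicle (log2 fold change 0.02, interval -0.21 to 0.25), although 3 of the 7c livers lay above and 3 below all vehicle livers. Atp6ap2 was 38.1 ± 4.02 against 36.8 ± 4.97 CPM (0.05, interval -0.20 to 0.30). Mme was 43.0 ± 10.5 against 50.2 ± 6.47 CPM (-0.22, interval -0.59 to 0.14).

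**Figure D4:**
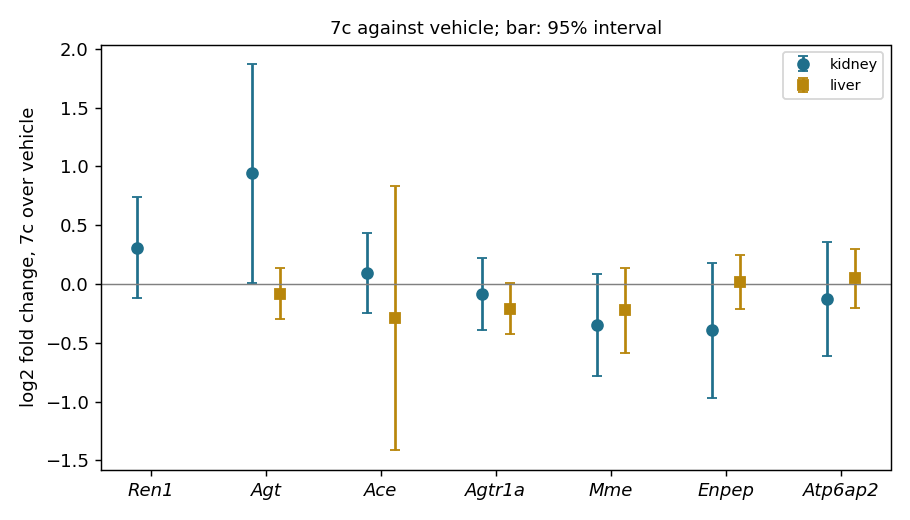
Log2 fold change of 7c over vehicle for 7 members in kidney (circles) and 6 in liver (squares), with 95% intervals from the edgeR fit. The interval of Agt in kidney, 0.01 to 1.87, is the only one that leaves out 0, and its adjusted p was 0.997; the interval of Ace in liver, which had 8 to 72 counts, is the widest of the 13.

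Kidney levels of Atp6ap2, Mme, Enpep and Agtr1a moved together from library to library. After the group means were removed, Pearson's r over the 10 kidney libraries was 0.96 for Enpep with Atp6ap2, 0.90 for Mme with Atp6ap2 and 0.58 for Agtr1a with Mme, the lowest of the 6 pairs. In liver the pairs ran from -0.43 (Agtr1a with Mme) to 0.51 (Mme with Enpep). These are descriptions over libraries that share depth and base composition. Against the GC trend of the kidney library, r was -0.99 for Atp6ap2, -0.94 for Mme, -0.93 for Enpep and -0.77 for Agtr1a. The longest annotated transcripts of these genes have a GC content of 39.1% to 47.2%. For Ren1 (54.6% GC, by the longest transcript as well) r was 0.66, for Agt (51.5%) 0.53 and for Ace (56.3%) 0.20. Of all kidney genes, 13.4% reached 0.9 in size, and the median size was 0.60.

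**Figure D5:**
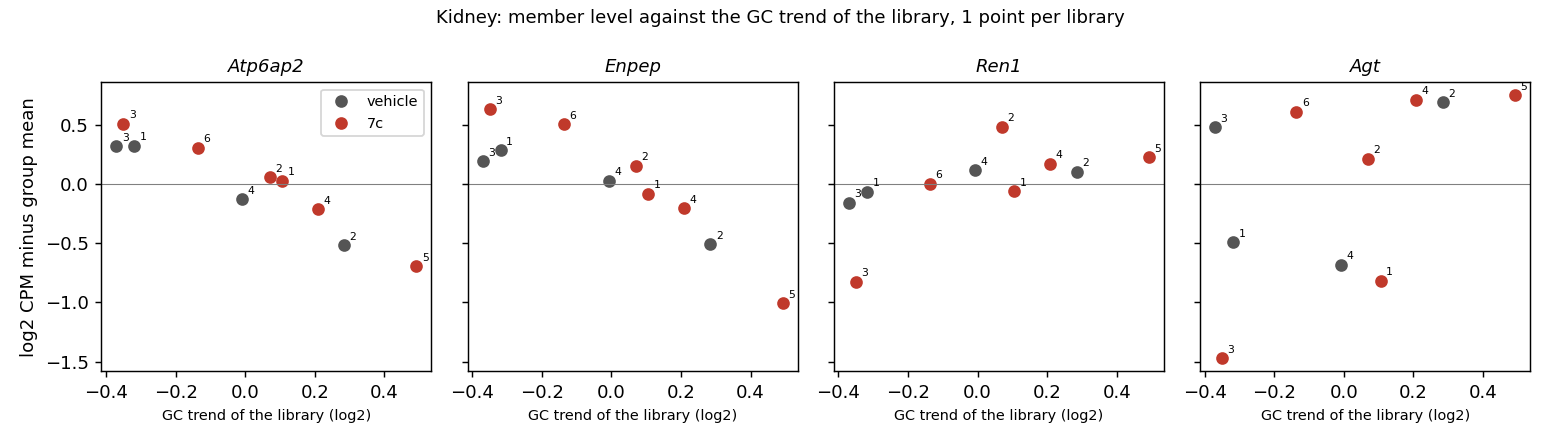
Deviation of log2 CPM from the group mean against the GC trend of the library (log2, GC-rich minus GC-poor genes) for 4 members in the 10 kidney libraries, replicate numbers beside the points. Atp6ap2 and Enpep fall along the trend from 7c replicate 3 to 7c replicate 5, while Agt at the GC-poor end lies below its group mean in 7c replicate 3 and vehicle replicate 1 and above it in vehicle replicate 3.

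With the GC trend as a covariate, added after the data were seen, the kidney log2 fold changes of 7c were 0.67 for Agt (SE 0.41), 0.16 for Ren1 (SE 0.16), -0.17 for Mme (SE 0.086) and -0.18 for Enpep (SE 0.11). Atp6ap2 turned from -0.12 to 0.10 and Agtr1a from -0.09 to 0.02. All of these had an adjusted p of 0.995 or more in edgeR. The GC trend lay at -0.35 in 7c replicate 3 and 0.49 in 7c replicate 5, and both groups held libraries at either end of the range.

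The genes most like Ren1 across the 10 kidney libraries, by Pearson's r of log2 CPM after the group means were removed, were Ttr (0.93, which carries thyroxine and retinol), Fbln1 (0.93), Nxph3 (0.93), Wtip (0.93) and Adcy4 (0.93), among 14238 genes with at least 1 CPM. The 11 genes of the renin-producing cell and of renin release at that level had 3 positive and 8 negative r with Ren1, from -0.54 for Adcy6, an adenylyl cyclase, to 0.38 for Akr1b7, a reductase of renin-producing cells. For Agt in kidney the closest were Smim5 (0.96), Gpx6 (0.94), Ccdc32 (0.93), Mxra7 (0.92) and Zfpm1 (0.92). For Agt in liver they were Gm10288 (0.95), Cmtm7 (0.91), Efnb1 (0.91), Gm9385 (0.90) and Nelfa (0.89), of which the pseudogenes Gm10288 and Gm9385 may share reads with their parent genes. Ranked by Spearman's rho, 1, 2 and 0 of these genes stayed among the first 5.

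Of 21 further genes of the system 20 were in the table. In the 7c comparison 15 were tested in kidney (9 with a positive and 6 with a negative log2 fold change, median 0.02 beside -0.01 over all genes) and 13 in liver (6 and 7, median -0.03 beside 0.00), and 0 were called in either organ by edgeR, with 0 and 1 at an unadjusted p under 0.05. In kidney the lowest p values were those of Mas1 (2.78 ± 0.567 CPM with 7c, 3.60 ± 0.615 with vehicle), Klk1 (1396 ± 216.8 against 1215 ± 306.5), tissue kallikrein, and Agtrap (132.8 ± 32.0 against 113.2 ± 24.8), which promotes internalization of the type 1 receptor. In liver Mas1 and Nln (29.8 ± 2.74 against 34.7 ± 6.44 CPM), neurolysin, were among those with the lowest p. Mas1 in liver had 6 to 48 counts in 7c and 0 to 14 in vehicle libraries, with 5 of 6 7c livers above all vehicle livers (log2 fold change 2.02, SE 0.80, unadjusted p = 0.0245, adjusted p = 1.00 in edgeR).

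Between the vehicle organs, 7 of 15 of these genes were called higher in kidney (adjusted p under 0.05 in edgeR), beside 31.0% of all genes tested, and 3 lower, beside 26.8%. On the scale of all 20 libraries, Agtrap was 90.3 ± 19.7 CPM in kidney and 6.01 ± 1.21 in liver, and Klk1 was 969.9 ± 250.4 and 0.0517 ± 0.103. The cytosolic peptidases Prep (25.5 ± 2.59 against 45.4 ± 5.57 CPM), Nln (27.7 ± 6.21 against 42.7 ± 7.29) and Dpp3 (53.8 ± 6.06 against 82.8 ± 8.04) were the lower ones.

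Genes of the renin-producing cell and of renin release gave 12 tested in kidney, of which 3 had a positive and 9 a negative log2 fold change with 7c (median -0.19), and none was called. Gnas, the stimulatory G protein subunit, was 18.9 ± 3.17 against 16.2 ± 1.39 CPM, Adrb1, the receptor through which sympathetic nerves release renin, 2.19 ± 0.596 against 2.87 ± 0.650, and Gja5, the gap junction protein of juxtaglomerular cells, 3.63 ± 0.790 against 4.38 ± 0.425. In liver 9 were tested and none was called, with the lowest p for Adcy6, Rbpj and Pde3b.

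Downstream of the cascade, the 14 genes of aldosterone response and sodium transport had 10 positive and 4 negative log2 fold changes in kidney (median 0.10), and 0 calls. Hsd11b2, the enzyme that keeps cortisol and corticosterone from the mineralocorticoid receptor, was 164.3 ± 19.9 CPM with 7c and 134.1 ± 18.4 with vehicle, and 5 of 6 7c kidneys lay above all vehicle kidneys (log2 fold change 0.29, SE 0.13, unadjusted p = 0.0406, adjusted p = 0.997 in edgeR). Tsc22d3, a target of corticosteroid receptors, was 36.9 ± 12.4 against 25.7 ± 6.78 CPM, and Nedd4l, a ubiquitin ligase of the sodium channel, 92.0 ± 13.6 against 78.3 ± 13.4. In liver 9 were tested and 0 called, and Sgk1 and Nr3c2 were among those with the lowest p. The androgen-responsive genes of the male tubule, 6 in kidney, split into 3 and 3 by sign (median 0.03) with 0 calls, and Cyp7b1, Slc7a13 and Odc1 had the lowest p. In liver 4 of them were tested, with 0 calls.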

How the data were processed

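Polyadenylated RNA of liver and kidney was sequenced from stranded TruSeq libraries. The deposited values are raw counts per gene, which the authors made by aligning reads to GRCm39 with STAR 2.7.11b and counting with featureCounts 2.0.6, per the submitters' processing notes. The annotation release, the strand setting and the treatment of reads with several positions are not given in the sources used here. Of the genes with 1 to 20 counts in a library, 75.07% to 83.25% had an even count, so that counting error is larger than the counts alone give. Symbols, lengths and positions came from GENCODE vM39 (56310 of 57010 genes matched).

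A gene entered the tests of a tissue when 50% or more of its libraries held 10 or more counts, which left 17749 genes in kidney, 15012 in liver and, for the tissue comparison, 18598 that passed in either. Counts were TMM-normalized and tested with edgeR 4.0.16 (R 4.3.3), quasi-likelihood F-test, Benjamini-Hochberg adjustment, threshold 0.05. Kidney and liver were fitted separately. The interaction and the tissue comparison each had a fit of all 4 groups, the interaction on the 14163 genes that passed in both tissues. Log2 CPM used a prior count of 2. Exact permutation tests were two-sided, with p as 2 times the smaller tail. A single split of the 210 is a share of 0.00476, so that the smallest possible p is 2 times that share. Alternatives were RLE factors, DESeq2 1.42.0, limma-voom (limma 3.58.1), the likelihood ratio test, the new quasi-likelihood method, other filters, a block, both tissues in 1 fit and leaving out each replicate. The GC trend covariate, the canonical transcript length and the alternatives of the permutation tests were added after the data were seen. Scripts were tested on simulated data. The members and lists were chosen with earlier results of these data known. Besides the members, the text names the genes of each pathway list past the threshold or, where there were none, the 3 with the lowest p in each tissue, the 3 with the largest tissue difference in each direction, and the 5 genes most like Ren1 and Agt. Akr1b7 was named after its value was seen. The values of 2 genes that the rule names are not reported here. The labels call the replicates biological.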

Additional observations from a re-analysis of the deposited data

Results flagged for a closer look

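A library far from the others of its group was found in 4 of 28 sets of member values, where chance gives about 1 in 20. That rate does not apply to the Ren1 and Agtr1b sets, in which a single library had counts and the ratio is 1.00 by construction. In the vehicle livers replicate 3 had the highest Ace (gap to the next library over the range 0.934) and the only Ren1 counts (1.00). In the 7c livers replicate 3 had the highest Agt (0.634). In the vehicle kidneys replicate 3 held the only Agtr1b counts of its group (1.00), 4 in number. No member's response to 7c passed the test of a difference between kidney and liver.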

How the results depend on the processing

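No member was called for 7c under any alternative, and the tissue calls of Ren1, Ace, Agt and Agtr1a held under all that were run. Over all genes, 7c in kidney gave 0 calls, and 18 with DESeq2, 18 with both tissues in 1 fit, 14 with the likelihood ratio test, 3 without a filter, 2 with limma-voom, 2 with the new quasi-likelihood method, 1 with the GC trend covariate and 0 to 3 when a replicate was left out (3 without 7c replicate 5). In liver the count of 1 became 6 with DESeq2, 7 with the likelihood ratio test, 4 with both tissues or without a filter, 2 with filterByExpr, 0 with the GC trend covariate and 0 to 2 without a replicate (0 without vehicle replicate 4, 2 without 7c replicate 4 or vehicle replicate 2). The interaction count of 1 became 14 with DESeq2, 7 without a filter, 0 with limma-voom and 0 to 7 without a replicate (7 without 7c replicate 6).

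Replicate numbers were checked as a pairing of liver with kidney: 7 of 10 same-numbered pairs correlated over 0.1 (0.0115 to 0.259), and 7 of 10 libraries correlated best with their own number. Between 7c and vehicle 1 of 4 pairs in kidney and 0 of 4 in liver were over 0.1. The labels do not say whether a number marks a mouse, which is undecided here, and as not every pair was over 0.1 the libraries were not treated as paired. The tests between organs and of the interaction thus took liver and kidney libraries as independent, although the same mice gave both organs. Leaving out a replicate in those tests removed the liver and the kidney library of that number. The relation of liver to kidney levels, with its RLE and prior count alternatives, was not run. With the replicate number as a block, 0 genes were called in kidney, 0 in liver and 0 for the interaction. Within a tissue this block joined 7c and vehicle libraries of equal number, which come from different mice. The 7c replicates 5 and 6 had no vehicle library of their number and added nothing to the 7c contrast. For the interaction the block joined the liver and kidney library of the same treatment and number. In the block fits within a tissue, Agtr1a in kidney turned to 0.011 and Enpep in liver to -0.088, and Agt in kidney was 0.50.

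Directions that turned in other settings follow, and the cause was not tested. With the GC trend covariate the kidney values of Atp6ap2 and Agtr1a became 0.10 and 0.015, and Enpep in liver, where the trend does not overlap between the groups, became -0.20. Leaving out a replicate moved the liver log2 fold changes of Enpep over -0.029 to 0.065, of Atp6ap2 over -0.043 to 0.10 and of Ace over -0.49 to 0.38, and the interactions of Mme over -0.21 to 0.038, of Agtr1a over -0.066 to 0.22, of Atp6ap2 over -0.35 to 0.032 and of Ace over -0.30 to 0.64. Both of these turns of Ace came without vehicle replicate 3. The differences of mean CPM that turned ran over -0.456 to 40.4 for Ace in kidney, -0.316 to 0.185 for Ace in liver, -1.17 to 2.57 for Atp6ap2 in liver and -1.86 to 4.12 for Enpep in liver. Spearman's rho shared 1, 2 and 0 of the 5 genes most like Ren1 in kidney, Agt in kidney and Agt in liver. The order of levels kept all 8 ranks in each group under other lengths and RLE factors. Few counts limit Ace in liver, Ren1 in liver and Agtr1b.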
